A study of Mus musculus with 6 samples.

Results

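The Notch receptors Notch1, Notch2 and Notch3, the ligands Jag1 and Dll1, the DNA-binding partner Rbpj and the target genes Hes1, Hes5, Hey1 and Heyl were followed in bulk RNA-seq of mouse astrocytes. They were taken by name as a set of 10 genes among the 35127 genes of the table. 9 of the 10 had enough reads to be tested, and Heyl did not. The 3 tumour libraries came from tumour-associated astrocytes, taken from allografts of small cell lung cancer (SCLC) in the brain. The 3 sham libraries came from control astrocytes of brains that had received a sham injection. The sources used here do not give strain, age, sex, the graft line or its host, the time after injection, how astrocytes were purified, or whether libraries are separate animals. A p-value below thus reflects the library-to-library spread alone, and that spread may be technical.

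Notch receptors are single-pass membrane proteins that are cut by ADAM proteases and then by gamma-secretase when a ligand on a neighbouring cell pulls on them. The freed intracellular domain enters the nucleus, binds RBPJ together with a Mastermind protein, and turns RBPJ from a repressor into an activator of HES and HEY genes. HES and HEY proteins are themselves repressors, and in the developing brain this pathway keeps progenitors from becoming neurons and favours glial fate.

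Depth was similar, at 22133723 to 25800897 estimated reads per library. Tumour libraries 1 to 3 lay close to each other, as did sham libraries 1 and 2, with a root mean square log2 difference of 0.322 to 0.352 within these pairs. Sham library 3 stood apart, 0.795 to 0.802 from the other sham libraries, which is farther than the 0.734 to 0.749 between tumour and sham libraries. Levels within a gene are given as CPM (read counts scaled by TMM library sizes), levels between genes as TPM (which also corrects for transcript length), and fold changes as log2 of tumour over sham. All 8 astrocyte markers examined were above 1 CPM in every library, and their summed level was 3014 to 3119 CPM in the tumour and 2579 to 4418 CPM in the sham libraries. The 4 fibroblast markers summed to 3478 to 3505 CPM in the tumour and 3333 to 5641 CPM in the sham libraries. For 7 markers of the oligodendrocyte lineage the sums were 312 to 321 CPM and 242 to 348 CPM. The part of other cell types in these libraries was not tested. Of 14359 tested genes, edgeR's quasi-likelihood test at a Benjamini-Hochberg adjusted p below 0.05 called 20.9%, with 10.5% higher and 10.4% lower. At an unadjusted p below 0.05, edgeR had 2538 genes higher and 2678 lower. DESeq2 called 1951 genes higher and 1968 lower, and limma-voom called 1638 higher and 1461 lower. Without sham library 3 the share called by edgeR was 57.7%. With the near libraries summed, leaving 1 tumour value against 2 sham values, edgeR called 0 genes (400 higher and 173 lower at an unadjusted p below 0.05), and none of the 9 tested Notch genes had an unadjusted p below 0.05.

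Of the 9 tested genes, Notch1 and Notch2 fell and Rbpj rose, which is 33.3% beside the 20.9% of all genes. The ligands and the tested HES and HEY genes were not called. Hes1 was near its tumour level in 1 sham library and well above it in the other sham libraries.

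Promoter windows were available for 7 of the 10 genes from RefSeq (GRCm38.p6), each running from 250 bases before to 50 bases after a start site. They were searched on both strands for TGGGAA, the core of the RBPJ site. The windows of Hes5 and of Rbpj itself are shown because they were the members whose windows held the core. The window of Hes5 is chr4:154960673-154960972 on the plus strand and that of Rbpj is chr5:53590096-53590395 on the plus strand. Capitals mark each TGGGAA or its reverse complement.
Hes5: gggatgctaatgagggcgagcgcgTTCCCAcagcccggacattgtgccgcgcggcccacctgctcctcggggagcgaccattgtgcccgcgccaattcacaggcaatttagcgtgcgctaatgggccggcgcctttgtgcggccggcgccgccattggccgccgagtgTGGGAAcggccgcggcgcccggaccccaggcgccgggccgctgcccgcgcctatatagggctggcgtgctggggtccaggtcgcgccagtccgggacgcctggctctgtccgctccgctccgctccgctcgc
Rbpj: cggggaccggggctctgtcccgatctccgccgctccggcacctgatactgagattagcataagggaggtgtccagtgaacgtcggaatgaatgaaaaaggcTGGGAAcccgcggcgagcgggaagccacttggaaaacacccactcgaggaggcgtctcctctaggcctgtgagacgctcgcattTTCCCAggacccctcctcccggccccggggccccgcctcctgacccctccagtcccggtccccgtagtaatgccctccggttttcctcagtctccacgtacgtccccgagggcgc
In the Hes5 window the matches begin 226 bases upstream of the start site, on the reverse strand, and 82 bases upstream, on the printed strand. In the Rbpj window they begin 149 bases upstream on the printed strand and 65 bases upstream on the reverse strand. A second, overlapping Rbpj window, chr5:53590236-53590535, held the latter match only. The start sites of both Rbpj windows are RefSeq positions and differ from the starts of the Rbpj transcripts named below. Rbpj-203 starts at 53590471, which lies in the second window only, and the start of Rbpj-202 lies in neither. Of 32851 RefSeq windows of 300 bases, 25.6% held at least 1 TGGGAA and 3.79% held 2 or more. No TGGGAA was found in the windows of Notch1, Notch2, Notch3, Jag1 and Dll1. The longer form CGTGGGAA, which contains the core, was in 0.734% of all windows and in none of the 9 windows of these genes. The N-box CACNAG, a sequence that HES proteins bind, occurred 3 times in the Notch1 window, where 2 of the matches overlap on opposite strands. It occurred 1 time in the Notch2 window, 2 times in the Notch3 window and 1 time in 1 of the Dll1 windows. Of all windows, 42.5% held at least 1 CACNAG and 11.3% held 2 or more. The E-box CACGTG, bound by HEY proteins, was in none of the 9 and in 7.15% of all. A match of letters is a description and not evidence of a bound site.

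Among the receptors, Notch1, a receptor of neural progenitors and many other cells (chromosome 2, 26457903 to 26516663, minus strand, mm10), stood at 74.4, 80.9 and 76.6 CPM in tumour libraries 1 to 3 and at 112, 119 and 144 CPM in sham libraries 1 to 3. Every tumour library lay below every sham library, and sham library 3 was the highest of all. The log2 fold change was -0.69 (SE 0.11, edgeR adjusted p = 0.00777), or 1.61-fold lower. The adjusted p was 0.0525 without tumour library 1 and 0.0512 without tumour library 3, and the fold change was -0.58 without sham library 3.

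Notch2, a receptor with the same repeat structure (chromosome 3, 98013527 to 98150361, plus strand), had 148, 151 and 152 CPM in the tumour and 212, 215 and 172 CPM in the sham libraries. The groups did not overlap, and here sham library 3 was the sham library nearest to the tumour level. For Notch2 the log2 fold change was -0.41 (SE 0.10, edgeR adjusted p = 0.0317). The call was lost when any 1 library other than sham 3 was left out, with adjusted p between 0.0914 and 0.129, and the fold change without sham library 3 was -0.51.

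Notch3, best known in mural cells of vessels (chromosome 17, 32120820 to 32166852, minus strand), had 39.0, 41.4 and 41.6 CPM in the tumour and 36.9, 37.2 and 55.9 CPM in the sham libraries. The tumour values lay between sham libraries 1 and 2 on one side and sham library 3 on the other. For Notch3 the log2 fold change was -0.09 (SE 0.17, edgeR adjusted p = 0.745) and took the other sign, 0.13, without sham library 3. Of 7 mural markers, Pdgfrb had 110 to 157 CPM while Kcnj8, Abcc9 and Rgs5 were below 1 CPM in every library. The summed mural level was 196 to 205 CPM in the tumour and 162 to 260 CPM in the sham libraries, highest in sham library 3 like Notch3. Pdgfrb and Cspg4 made up most of it, whereas Vtn was lowest in sham library 3, and the part of mural cells in the Notch3 values was not tested. In bulk RNA, fewer cells of a type and less RNA per cell cannot be told apart.

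**Figure D1:**
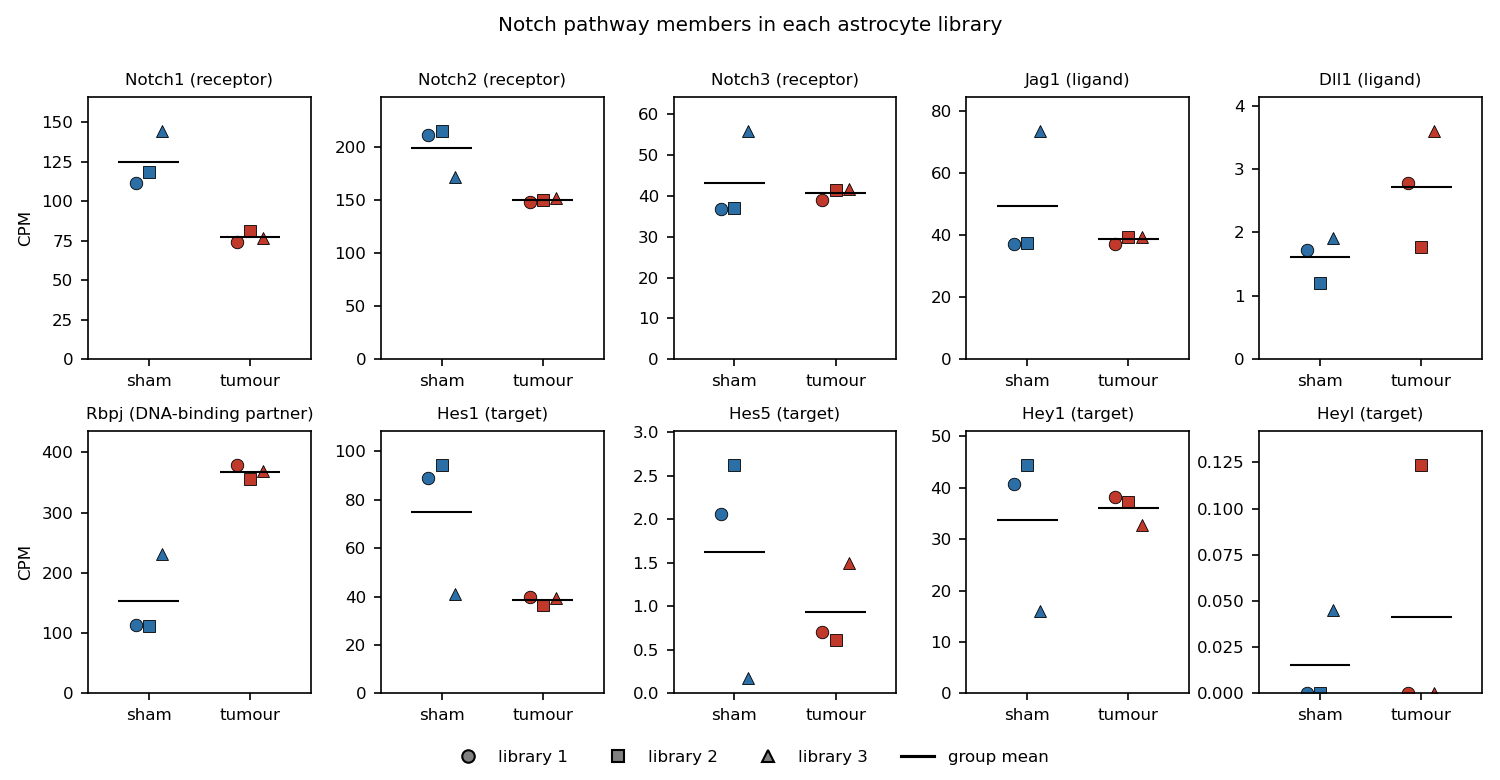
Level of each gene in each library in CPM (vertical axes from 0, separate for each gene), with sham libraries in blue, tumour libraries in red, a symbol for each library number and a line at the group mean. Tumour libraries lie below all sham libraries for Notch1, Notch2 and Hes1 and above them for Rbpj, and sham library 3 lies away from sham libraries 1 and 2 in most panels.

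Rbpj encodes the DNA-binding protein through which all Notch receptors act (chromosome 5, 53466152 to 53657362, plus strand). Its level was 378, 355 and 368 CPM in the tumour and 114, 113 and 232 CPM in the sham libraries. The groups did not overlap, and sham library 3 was 2.05 times the mean of sham libraries 1 and 2. Rbpj rose 2.41-fold (log2 fold change 1.27, SE 0.29, edgeR adjusted p = 0.0273), and by 1.70 on the log2 scale without sham library 3. The call was lost when any 1 of the other 5 libraries was left out, with adjusted p between 0.0801 and 0.100.

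A processed pseudogene, Rbpj-ps3 on chromosome 6, was assigned 670 to 2783 reads per library, which is 19.8% to 23.8% of the reads of Rbpj and the pseudogene together. Reads of near-identical copies are divided by estimation, so the level of Rbpj itself is less certain than its read number alone would give. With the pseudogene reads added, the levels were 486, 466 and 478 CPM in the tumour and 149, 140 and 300 CPM in the sham libraries. The log2 fold change was then 1.279 (edgeR adjusted p = 0.0283), an alternative chosen after seeing the data.

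Rbpj has 12 annotated transcripts, of which 3 coding ones carried at least 10% of its reads in a group mean: Rbpj-203 and Rbpj-201, which start at 53590471 and 53590214, and Rbpj-202, which starts farther upstream at 53555834. Rbpj-203 took 57.2% to 59.7% of the reads in the tumour libraries and 85.5%, 33.8% and 36.5% in sham libraries 1 to 3. Rbpj-202 took 16.9% to 19.7% in the tumour libraries and 0%, 59.9% and 28.1% in the sham libraries. Sham libraries 1 and 2, which had nearly equal Rbpj totals, thus received opposite splits between Rbpj-203 and Rbpj-202, and no difference in start site use between the groups can be read from these shares. For the other genes except Hes5 and Heyl, 1 coding transcript carried at least 86.7% of the reads in every library.

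**Figure D2:**
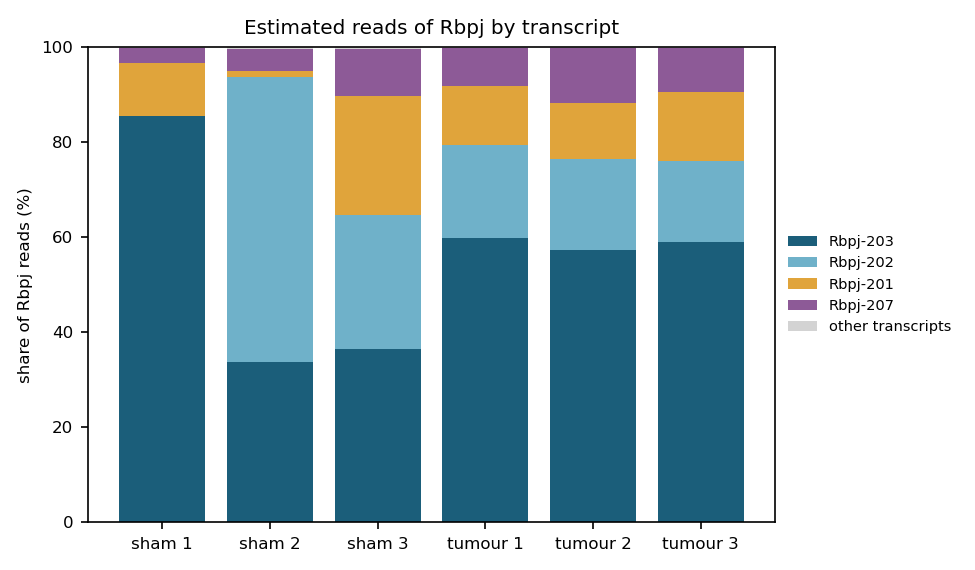
Share of the estimated reads of Rbpj on each transcript, in percent, for each library, stacked to 100%. The 3 tumour libraries have nearly the same split, with 57.2% to 59.7% on Rbpj-203, whereas the sham libraries range from 33.8% to 85.5%.

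The ligand Jag1, a transmembrane protein that activates Notch on the adjacent cell (chromosome 2, 137081456 to 137116644, minus strand), had 37.2, 39.2 and 39.4 CPM in the tumour and 37.1, 37.3 and 73.3 CPM in the sham libraries. The tumour libraries and sham libraries 1 and 2 were nearly level, and only sham library 3 was higher. For Jag1 the log2 fold change was -0.35 (SE 0.27, edgeR adjusted p = 0.399) and 0.05 without sham library 3. The 4 fibroblast markers were all above 1 CPM in every library and summed to 3478 to 3505 CPM in the tumour and to 3333, 3340 and 5641 CPM in the sham libraries. Col1a1 and Col1a2, which make up most of this sum, were highest in sham library 3 as Jag1 was. Dcn was lowest there, at 52.5 CPM, and Lum was higher in sham libraries 1 and 2 than in sham library 3. The part of fibroblasts in the Jag1 values was not tested.

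Dll1, a ligand of the Delta type (chromosome 17, 15367354 to 15376872, minus strand), was low, at 2.77, 1.77 and 3.59 CPM in the tumour and 1.71, 1.21 and 1.91 CPM in the sham libraries. These values rest on 29 to 91 reads per library, and the groups overlapped. The log2 fold change was 0.75 (SE 0.34, edgeR adjusted p = 0.165). Neither ligand was called by edgeR, DESeq2 or limma-voom, and 0 of the 2 had an unadjusted edgeR p below 0.05, while the fit without sham library 3 called Dll1 higher (0.89, adjusted p = 0.0171).

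Among the target genes Hes1, the repressor most widely induced by Notch (chromosome 16, 30064384 to 30067796, plus strand), had 39.7, 36.5 and 39.5 CPM in the tumour libraries and 89.1, 94.1 and 41.0 CPM in the sham libraries. All tumour values were below all sham values, but sham library 3 was close to the tumour level whereas sham libraries 1 and 2 were far above it. For Hes1 the log2 fold change was -0.95 (SE 0.30, edgeR adjusted p = 0.0659), which did not pass. DESeq2 called Hes1 lower (adjusted p = 0.00917) and limma-voom did not (adjusted p = 0.104). The fold change was -1.25 without sham library 3, where the fit called it, and -0.76 to -0.98 without any 1 of the others. Mitochondrial transcripts split the libraries the same way, at 4.05% to 4.23% of reads in the tumour libraries and 6.66%, 6.20% and 4.20% in sham libraries 1 to 3. The summed level of the 8 astrocyte markers was 4408 and 4418 CPM in sham libraries 1 and 2 and 2579 CPM in sham library 3, but its members differed. Gja1 fell (log2 fold change -0.94, edgeR adjusted p = 0.0268) and Aldh1l1 rose (0.48, adjusted p = 0.0215). Slc1a2 was above all sham libraries in every tumour library and was not called, and the other 5 were not called either. The part of mitochondrial reads or astrocyte markers in the Hes1 values was not tested.

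Hes5, which marks radial glia with active Notch (chromosome 4, 154960923 to 154962371, plus strand), was barely present, at 0.704, 0.617 and 1.501 CPM in the tumour and 2.07, 2.62 and 0.181 CPM in the sham libraries. These are 15 to 63 reads per library except in sham library 3, which had 4 reads. For Hes5 the log2 fold change was -0.79 (SE 0.83, edgeR adjusted p = 0.545). It moved to -1.31 without sham library 3, to -1.29 without tumour library 3 and to -0.26 without sham library 2, so its size is set by single libraries. The low level stands beside the 2 TGGGAA matches in its promoter window printed above.

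Hey1, a related repressor known from vessels and progenitors (chromosome 3, 8663359 to 8667256, minus strand), had 38.3, 37.3 and 32.9 CPM in the tumour and 40.7, 44.4 and 16.1 CPM in the sham libraries. Sham library 3 was again low, at 0.378 times the mean of the other sham libraries, and the groups overlapped. The log2 fold change was 0.10 (SE 0.35, edgeR adjusted p = 0.865) and took the other sign, -0.24, without sham library 3.

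Heyl (chromosome 4, 123233556 to 123249875, plus strand) is a HEY-family gene known from mural cells, and it was not detected above the level of 3 reads. Tumour library 2 had 3 reads, sham library 3 had 1 and the other 4 libraries had 0, which allows up to 0.119 to 0.132 CPM in those libraries for counting error alone. edgeR called 0 of the 3 tested target genes, 1 of which (Hes1) had an unadjusted p below 0.05. The fit without sham library 3 called all 3 lower, Hes5 and Hey1 with adjusted p of 0.00320 and 0.00390, beside the 57.7% of all genes called in that fit.

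**Figure D3:**
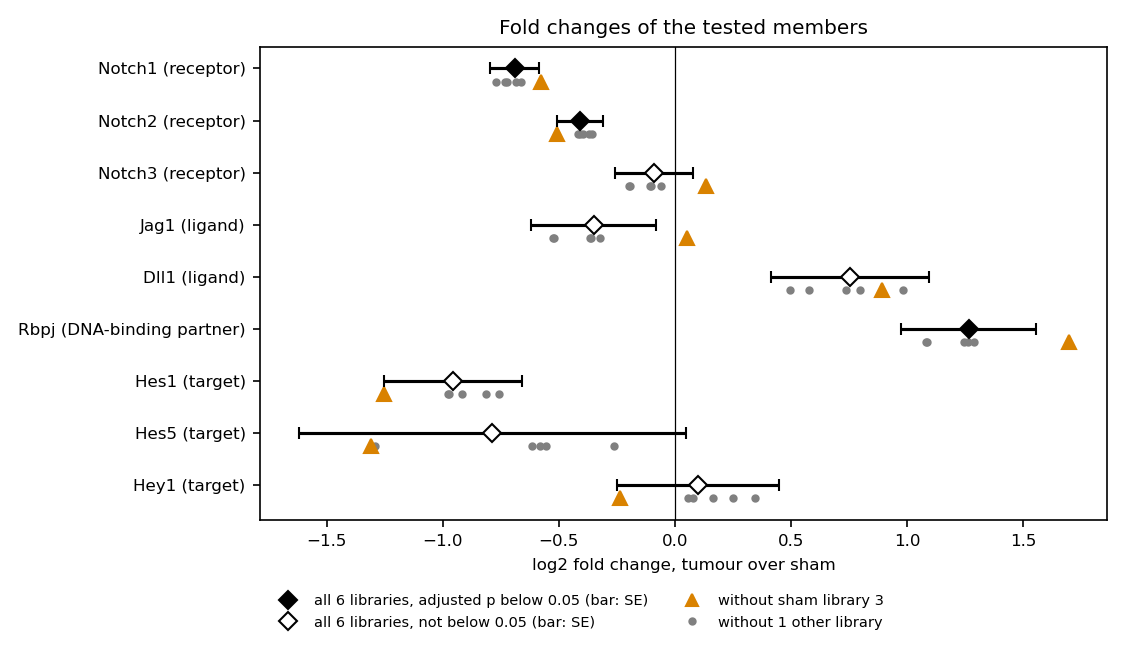
Log2 fold change of tumour over sham for the 9 tested genes (diamonds with SE bars, filled where the adjusted p was below 0.05) and the values with 1 library left out (grey dots, and an orange triangle for the fit without sham library 3). Notch1, Notch2, Rbpj, Dll1, Hes1 and Hes5 keep their sign in all of these fits, whereas Notch3, Jag1 and Hey1 cross 0 without sham library 3.

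Set side by side, the summed levels of receptors and targets moved differently across the sham libraries. The summed TPM of the 3 receptors was 37.5, 38.0 and 41.7 in the tumour and 49.4, 51.1 and 54.0 in the sham libraries, so the groups did not overlap. The receptors themselves did not move together. In CPM, sham library 3 was 1.25 times the mean of sham libraries 1 and 2 for Notch1 and 1.51 times for Notch3. For Notch2 it was 0.807 times, lower as for Hes1 (0.447) and Hey1 (0.378). The summed TPM of the 4 targets was 79.6, 73.9 and 75.4 in the tumour and 132, 151 and 59.0 in the sham libraries, so sham library 3 lay below the tumour libraries. Relative to sham libraries 1 and 2 the tumour mean was 0.778 times for receptors and 0.538 times for targets, and relative to sham library 3 it was 0.724 and 1.29 times. The median log2 fold change was -0.41 over the 3 receptors and -0.79 over the 3 tested targets, beside -0.02 over all tested genes. Here the target median is the value of Hes5, which rests on few reads. With limma-voom the medians were -0.40 for receptors and -0.26 for targets. With 1 library left out, the target median ranged from -1.25 to -0.26 and the receptor median from -0.51 to -0.36. These medians are a description of few genes and were not tested against each other. Of the 9 tested members 4 had groups that did not overlap, 1 with tumour above and 3 with tumour below. Among all tested genes this held for 44.1%, with 22.2% above and 21.9% below.

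Per length, the order of levels in the tumour libraries was Rbpj at 120 ± 5.04 TPM (SD, n = 3), Hes1 at 48.4 ± 1.44, Hey1 at 26.1 ± 1.90, Notch2 at 19.9 ± 0.360, Notch1 at 12.2 ± 1.82, Jag1 at 10.2 ± 0.191 and Notch3 at 6.93 ± 0.160 TPM. No neighbours among these 7 overlapped between tumour libraries. Hes5 at 1.81 ± 1.10 TPM and Dll1 at 1.43 ± 0.860 TPM did overlap. In the sham libraries Hes1 came first at 87.6 ± 36.6 TPM, followed by Rbpj at 50.04 ± 24.0, Notch2 at 26.1 ± 2.85, Hey1 at 23.7 ± 10.9, Notch1 at 18.1 ± 3.01, Jag1 at 13.03 ± 5.98 and Notch3 at 7.29 ± 1.97 TPM. Only Rbpj and Notch2 were separate among these neighbours, the others overlapping between libraries. Hes1 exceeded Rbpj in sham library 1, at 99.7 against 35.1 TPM, and was below it in sham library 3, at 46.4 against 77.8 TPM, the order of the tumour libraries. Among Notch1, Notch2 and Notch3, Notch2 had the highest level and Notch3 the lowest in all 6 libraries.

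The genes whose log2 CPM over the 6 libraries was most like that of Notch1, which changed most among Notch1, Notch2 and Notch3, were Alg1, Parp3 and Tmem63b, each with a Pearson r of 0.998. For Hes1, which had the largest log2 fold change in size among Hes1, Hes5 and Hey1, they were Gjb2, Gpr4 and Slc5a6, each with an r of 0.999. The Hes1-like genes shared the pattern of 2 high sham libraries. Gpr4 had 27.7 and 29.6 CPM in sham libraries 1 and 2, 7.94 CPM in sham library 3 and 6.66 to 7.78 CPM in the tumour libraries. With near-coinciding libraries other genes had high values too: of 14358 genes compared, 56 had an r above 0.99 with Notch1 and 44 with Hes1. The values are a description only.

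The rest of the pathway was read from a list of 60 genes in 7 roles. Of these, 50 were tested, 9 rose and 4 fell, together 26% of those tested beside the 20.9% of all tested genes, and their median log2 fold change was 0.04. The called genes were the receptor gene Notch4, atypical ligands, a fringe enzyme, Deltex genes and nuclear cofactors, while no gene of the proteolytic machinery was called.

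Among further receptors and ligands, Notch4, a receptor known from endothelium, rose from 1.76, 2.12 and 6.17 CPM in the sham to 14.9, 12.2 and 12.7 CPM in the tumour libraries (log2 fold change of 1.99 with an SE of 0.46, edgeR adjusted p = 0.0293). The groups did not overlap, and the call was lost without any 1 library other than sham 3 (adjusted p 0.0694 to 0.111). Without sham library 3 its fold change was 2.76. Among 8 endothelial markers Cldn5 and Erg had 0 reads and Pecam1 and Vwf were below 1 CPM in every library, whereas Cdh5 had 497 to 595 CPM. The summed endothelial level, almost all from Cdh5, was 620 to 627 CPM in the tumour and 547 to 621 CPM in the sham libraries. Flt1 had 34.4 to 37.6 CPM in the tumour and 8.88, 8.94 and 33.9 CPM in the sham libraries, and Tek was likewise highest in sham library 3 among the sham libraries, as Notch4 was. Cdh5 and Kdr went the other way, lowest in sham library 3 among the sham libraries, at 497 and 9.98 CPM. The summed level was lowest there too, at 547 CPM. Between the groups Kdr fell (log2 fold change -1.29, edgeR adjusted p = 0.00350). The part of endothelial cells in the Notch4 values was not tested.

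Dlk2, a Delta-like protein that lacks the domain by which classical ligands bind Notch, rose from 11.6, 11.2 and 10.8 CPM to 31.5, 31.4 and 30.0 CPM (log2 fold change of 1.47 with an SE of 0.08, edgeR adjusted p = 0.000241). Its sham libraries agreed within 1 CPM, and its call was kept whichever single library was left out. Its relative Dlk1 rose by 1.76 on the log2 scale (SE 0.45, adjusted p = 0.0378), from 8.88, 9.93 and 2.45 CPM to 23.9, 22.8 and 25.5 CPM. That call was lost without any 1 library other than sham 3 (adjusted p 0.0585 to 0.125), with no filter on low counts (0.0726) and with length offsets (0.0527). Dner, a further non-classical ligand known from neurons, fell by 0.68 on the log2 scale (SE 0.09, adjusted p = 0.00470), from 33.0, 31.5 and 28.0 CPM to 18.9, 20.2 and 18.8 CPM. Jag2 was not called (0.19, adjusted p = 0.428), and Dll3 and Dll4 were below 1 CPM in every library and were not tested.

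The 10 genes of receptor processing, among them the ADAM proteases and the gamma-secretase subunits, lay between -0.17 and 0.23 on the log2 scale. edgeR, DESeq2 and limma-voom each called 0 of them, with 2 at an unadjusted p below 0.05 in edgeR. Of all 14359 tested genes edgeR called 20.9%, and 2538 were higher and 2678 lower at that unadjusted p. The pair with the highest levels per length, Psenen and Aph1a, had log2 fold changes of 0.23 (adjusted p = 0.0895) and -0.08 (adjusted p = 0.522). Without sham library 3, 3 were called higher and 0 lower, beside the 57.7% of all genes called in either direction in that fit. Of 5 genes that put sugars on Notch, Lfng, the fringe enzyme that alters which ligands a receptor answers to, fell from 44.2, 47.0 and 49.4 CPM to 25.3, 29.1 and 30.2 CPM. Its groups were well apart (log2 fold change -0.73, SE 0.09, edgeR adjusted p = 0.00390), and its call was kept whichever single library was left out. Poglut1 (0.09, adjusted p = 0.474) was not called.

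Among 12 genes of ligand and receptor trafficking or turnover, 2 rose and 0 fell, or 16.7% beside the 20.9% of all tested genes. Both were Deltex genes, which encode ubiquitin ligases that bind Notch. Dtx4 had 28.7, 29.6 and 43.5 CPM in the sham and 67.1, 68.7 and 71.4 CPM in the tumour libraries (log2 fold change of 1.03 with an SE of 0.16, edgeR adjusted p = 0.00882). Its adjusted p was 0.0509 without tumour library 3. Dtx2 had 15.0, 13.01 and 15.3 CPM in the sham and 27.0, 25.9 and 30.8 CPM in the tumour libraries (0.95, SE 0.11, adjusted p = 0.00308), with its call kept in each of these fits. Dtx3 (-0.18, adjusted p = 0.396) and the ubiquitin ligase gene Itch (0.06, adjusted p = 0.603), which had the highest levels per length in this role, were not called. Dtx1, often used as a Notch target, was not called either (-0.08, adjusted p = 0.852).

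Among 14 nuclear cofactors 4 rose and 2 fell, which is 42.9% beside the 20.9% of all tested genes. The Mastermind coactivator genes Maml1 (log2 fold change 0.38, SE 0.06, edgeR adjusted p = 0.00933) and Maml3 (0.80, SE 0.22, adjusted p = 0.0464) rose, and Maml2 was not called (-0.12, adjusted p = 0.310). The acetyltransferase gene Ep300 (0.36, adjusted p = 0.0205) and Spen, which encodes a corepressor bound by RBPJ (0.36, adjusted p = 0.0159), rose as well. Hdac1, a histone deacetylase gene, fell from 67.1, 63.9 and 71.4 CPM to 36.9, 38.0 and 37.5 CPM (-0.85, SE 0.06, adjusted p = 0.000854). Tle2, a Groucho-type corepressor gene, fell from 24.98, 22.6 and 39.2 CPM to 14.9, 13.2 and 14.1 CPM (-1.04, SE 0.22, adjusted p = 0.0196). Snw1, which encodes a coactivator and splicing factor and was abundant per length, was not called (0.03, adjusted p = 0.843). Only the call of Hdac1 was kept whichever single library was left out: those of Maml1 and Tle2 were lost without any 1 tumour library (adjusted p 0.0548 to 0.0565 and 0.0800 to 0.0909), and those of Maml3, Ep300 and Spen also without sham library 1 (0.115, 0.0718 and 0.0625), Maml3 and Spen also without sham library 2 (0.112 and 0.0684). The calls of Maml3 and Ep300 were lost with length offsets as well (adjusted p 0.119 and 0.172), and that of Maml3 with no filter (0.0600).

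**Figure D4:**
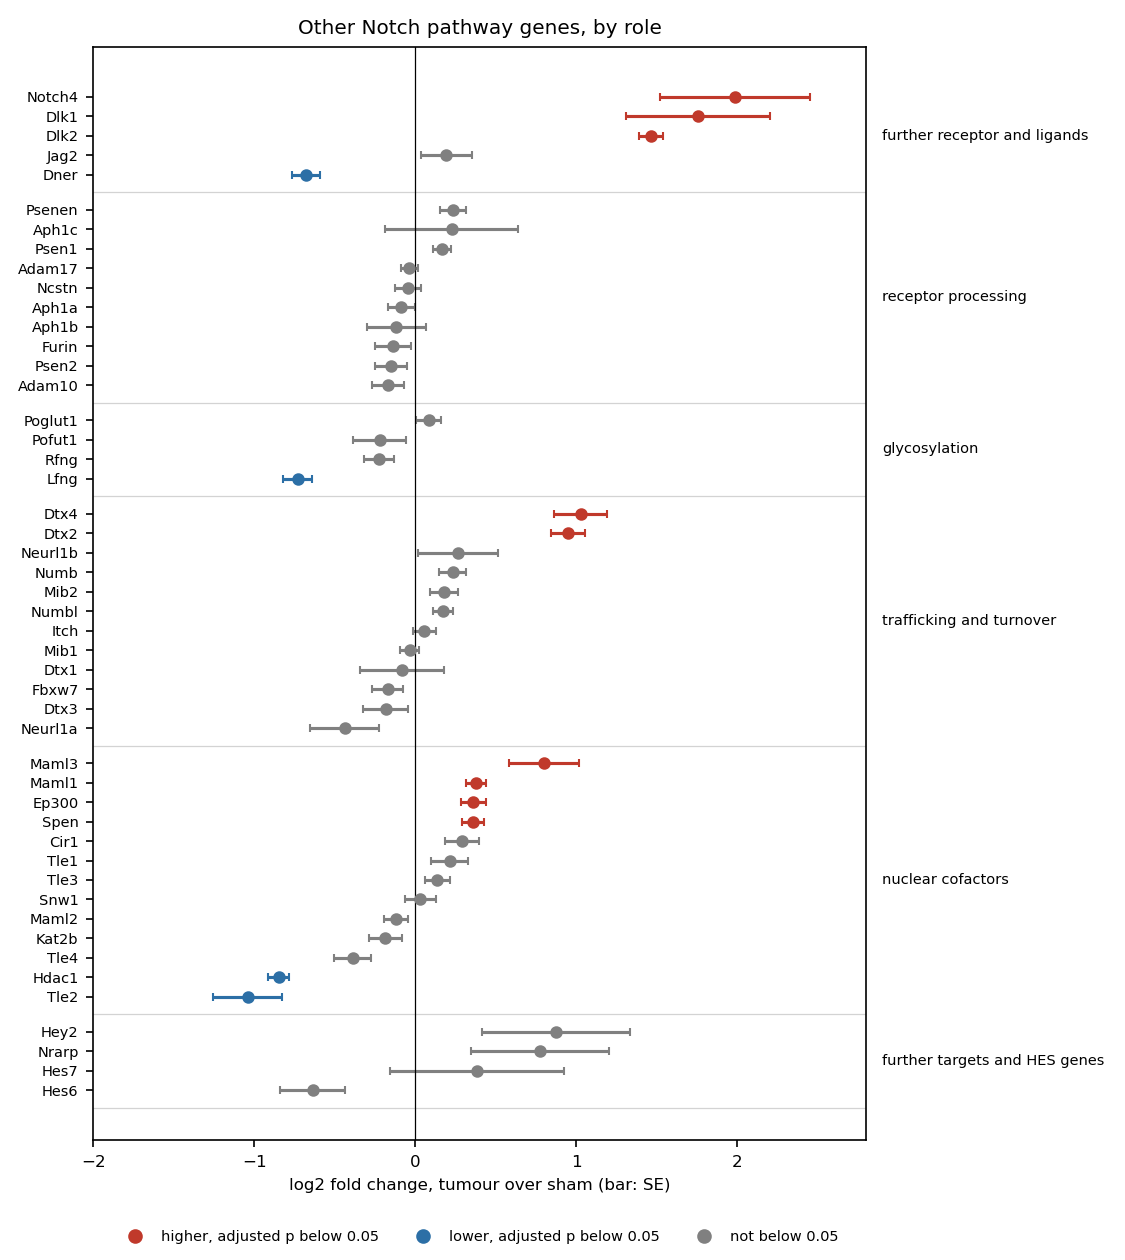
Log2 fold change of tumour over sham with its SE for 48 of the 50 tested genes among the other pathway genes, grouped by role, red where higher and blue where lower at an adjusted p below 0.05. The 10 processing genes lie between -0.17 and 0.23, and the largest changes are those of Notch4 at 1.99 and Dlk1 at 1.76.

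Of 6 further targets and HES genes, 4 were tested and edgeR called 0, with 1 (Hes6) at an unadjusted p below 0.05. Hes6, which encodes an antagonist of HES1, had 27.1, 27.9 and 44.8 CPM in the sham and 20.2, 21.7 and 22.3 CPM in the tumour libraries (log2 fold change of -0.64 with an SE of 0.20, edgeR adjusted p = 0.0703). DESeq2 called it lower (adjusted p = 0.0241), and limma-voom called none of them. Nrarp, an early feedback target of Notch, had 0.924 to 1.87 CPM in the sham and 1.48 to 3.32 CPM in the tumour libraries (0.77, adjusted p = 0.246), and Hes3 had 0 reads.

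Among proneural genes, which HES proteins repress, Neurog1, Atoh1 and Neurod4 had 0 reads in all libraries. Neurog2 and Neurod1 had at most 0.164 CPM in any library. The Notch ligand gene Dll3, which is also a marker of SCLC cells, stood at 0.176 to 0.623 CPM. The 12 SCLC markers summed to 36.8 to 40.5 CPM in the tumour and 48.8 to 55.2 CPM in the sham libraries. Nkx2-1, Uchl1 and Calca made up most of the sum, in the sham libraries as in the tumour libraries. Chga was at 0 in all tumour libraries, and Epcam was at 0.237 to 0.331 CPM there and 0 in the sham libraries. The part of SCLC cells in these libraries was not tested.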

How the data were processed

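RNA from 3 tumour and 3 sham astrocyte libraries was sequenced, and sample titles gave each library's group and number. Salmon 0.8.2, DESeq2 1.28.1 and the mm10 build are named, per the submitters' processing notes. The authors deposited an estimated count of reads for each transcript, not normalised. Deposited TPM values are scaled by effective length and library size. Kit, strandedness and read length were not stated, so reads of antisense genes overlapping Notch1, Notch3, Dll1, Rbpj and Hes5 cannot be separated.

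Of 113116 transcripts, 112841 matched GENCODE M21 (GRCm38, the assembly of mm10) by identifier without version, carrying 99.947% to 99.958% of reads. These were summed to genes and rounded to whole numbers. edgeR 4.0.16 (R 4.3.3) was run on all 6 libraries with TMM, filterByExpr (minimum count 10, minimum total 15), a robust quasi-likelihood fit on group, and Benjamini-Hochberg adjustment over all tested genes (threshold 0.05). Each SE is the size of the log2 fold change over the root of its F statistic. Alternatives were RLE normalisation, no filter, DESeq2 1.42.0, limma-voom (limma 3.58.1), length offsets, the replicate number as a block, leaving out each library, summing near libraries and, added after seeing the data, pseudogene reads. The fits were tested on simulated data. Likeness used log2 of CPM with 0.5 added. Members, lists and rules were chosen with earlier results of these data known. Named pathway genes were those called and the 2 with the highest mean TPM in each role. Jag2, Maml2, Dtx1 and the genes at or near 0 reads were named after their values were seen. Results of 2 listed genes are not reported here.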

Additional observations from a re-analysis of the deposited data

How the results depend on the processing

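RLE normalisation, limma-voom and the pseudogene alternative changed no call or sign among the 32 named genes that were tested. Counts of called genes moved more. With length offsets 969 genes were lower. The replicate block gave 829 genes higher and 607 lower, 1 member lower and 4 other pathway genes higher, and under it Notch2 was not called (-0.40, adjusted p = 0.0796), nor were Notch4 (adjusted p = 0.0507), Dlk1 (0.0688), Maml3 (0.118), Ep300 (0.0540) and Spen (0.0503). No pairing by number was seen: same-numbered deviations correlated at 0.008, -0.019 and -0.001, and tumour library 1 correlated best with sham library 2. Because the tumour libraries lie so close to each other, these correlations cannot show whether the libraries were paired. DESeq2 called 7 other pathway genes lower. With near libraries summed, 0 genes, 0 members and 0 other pathway genes were called in either direction, in a fit with 1 tumour value.

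Leaving out 1 library gave 536 to 4250 genes higher and 355 to 4179 lower, 0 to 2 members higher and 0 to 5 lower, and 2 to 17 other pathway genes higher and 3 to 13 lower, each range ending at the fit without sham library 3. Log2 fold changes that changed sign in these fits ranged from -0.20 to 0.13 for Notch3, -0.52 to 0.0523 for Jag1, -0.24 to 0.34 for Hey1 and -0.0247 to 0.12 for Snw1, and Aph1a was 0.0547 with length offsets. The cause was not tested. Depth limits Heyl, Hes5 and Dll1, which rest on few reads.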
